A study of Macaca mulatta with 19 samples.

Results

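The genes that encode the proteins of the mitochondrial ribosome were followed in luteinized granulosa cells of the rhesus macaque (Macaca mulatta), the steroid-making cells that line the follicle around ovulation. They were found by name and level: gene rows whose symbol starts with MRPL or MRPS and a digit, with a median of at least 1 CPM (reads of a gene scaled to the library's total gene counts) over the 19 libraries. Of 32386 gene rows, 63 carried such a symbol (62 different symbols) and 55 reached the level. The 55 members are 35 MRPL genes, taken as the large subunit, and 20 MRPS genes, taken as the small subunit. The rule used no difference between groups, but the members were chosen with earlier results of these data known.

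Female macaques had received implants and a diet from about menarche for about 3.5 years. Implants held cholesterol (C) or testosterone (T), the latter for a level 4 to 5 times that of the cholesterol animals, and the diet was standard chow or a Western-style diet (WSD). All animals then went through a controlled ovulation cycle, and the one follicle that had become dominant by itself was aspirated near ovulation. The 4 groups are Chow+C (cholesterol implant, chow, 4 libraries), Chow+T (testosterone implant, chow, 4), WSD+C (cholesterol implant, Western-style diet, 5) and WSD+T (testosterone implant, Western-style diet, 6). The labels also give the state of the oocyte from the follicle: MI or MII (the first or second meiotic metaphase), GV (germinal vesicle, still immature) or degenerating. In Chow+C, 3 oocytes were at MI and 1 at MII. In Chow+T, 2 were at MII, 1 was degenerating and 1 was a GV oocyte. Of the WSD+C oocytes, 3 were at MI and 2 were degenerating, while WSD+T had 2 at MI, 1 at MII and 3 that were degenerating. Oocyte class and treatment were therefore not balanced: no Chow+T follicle had an MI oocyte, and the only degenerating oocyte on chow was in Chow+T. Each library carries a number of its own in the labels and was taken as 1 animal.

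Mitochondria keep a small genome whose messages encode core subunits of the respiratory chain and of ATP synthase, and these messages are read by a ribosome of their own. All proteins of that ribosome are encoded in the nucleus, made in the cytosol and imported, so the organelle's protein synthesis depends on nuclear genes. The large subunit joins amino acids and the small subunit reads the message. Some of the proteins have a bacterial counterpart, and others were added to the ribosome in the mitochondrial lineage. In luteinized granulosa cells, mitochondria also carry out the first step of progesterone synthesis, the cleavage of cholesterol.

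Total gene counts ran from 28832132 to 56385679 per library, and reads of the members from 29845 to 93031, so that the members took 0.104% to 0.212% of gene counts. Markers of granulosa cells such as STAR, CYP11A1 and FST were abundant, at a summed 7321 to 17027 CPM in 18 libraries and 2253 CPM in WSD+C 4. That library also had the highest summed level of 8 erythroid markers (147026 CPM) and of 12 leukocyte markers (2328 CPM), while WSD+T 6 had 2195 CPM of the leukocyte markers. In Chow+C 2, 49.1% of reads fell in genes and 17.9% of gene counts came from 12 mitochondrially encoded genes. In the other 18 libraries these shares ranged over 55.9% to 69.1% and 0.795% to 11.4%. In bulk libraries such as these, fewer cells of a type and less RNA per cell cannot be told apart. Values below are CPM scaled by edgeR's TMM factors unless a log2 difference is named.

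All 55 members had counts in every library, all stayed above 1 CPM in each of the 19, and all passed the low-count filter. CPM does not correct for transcript length, so levels of different members are not ranked as abundance. The member with the lowest median was MRPL14, which lies at the face between the subunits, with a median of 4.69 CPM and a range of 1.60 to 6.97. In the large subunit the members of highest median CPM were MRPL37, a protein without bacterial counterpart (48.2 to 126 CPM), MRPL4, a protein near the exit tunnel (36.4 to 157 CPM), and MRPL10, at the base of the stalk that binds translation factors (36.5 to 71.4 CPM). In the small subunit these were MRPS33 (15.4 to 92.9 CPM), MRPS27 (32.8 to 66.1 CPM) and MRPS18B (30.7 to 57.3 CPM). The lowest medians after MRPL14 in the large subunit were those of MRPL21 (5.88 to 11.2 CPM) and MRPL54 (6.06 to 14.7 CPM), and in the small subunit those of MRPS18C, MRPS30 and MRPS2, with medians of 16.5, 16.7 and 18.4 CPM.

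A gap separated the members from the 8 matching rows left out. MRPL14, the member nearest the minimum, had an unscaled median of 4.60 CPM. The rows just outside were MRPS21 at 0.662 CPM, MRPS5 at 0.316 CPM, MRPL39 at 0.175 CPM and MRPL40 at 0.0715 CPM. MRPL18, MRPL32, MRPS34 and another row named MRPS21 had a median of 0. Another 6 rows without such a symbol in the counts (MRPL34, MRPL43, MRPL45, MRPL49, MRPL51 and MRPS15 by the RefSeq gene table) were expressed at medians of 19.8 to 59.9 CPM and are not members under the rule.

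The members went up and down together from library to library. Chow+C 2 held the lowest level of 33 of the 55 members and WSD+C 4 of another 15. The highest levels were spread more widely, with 11 members in WSD+T 2, 9 in WSD+T 5 and 8 in Chow+C 1. Across the 19 libraries the median Pearson r of the log2 CPM of 2 members was 0.61 over 1485 pairs, of which 96.0% were positive, beside a median of -0.003 over all pairs of the 15019 genes tested. It was 0.66 within the large subunit, 0.56 within the small subunit and 0.59 between them. Without Chow+C 2 and WSD+C 4 the median over all member pairs was 0.48, and with each library centred on its treatment group mean it was 0.62. These are descriptions: the points share library, scaling and depth.

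**Figure D1:**
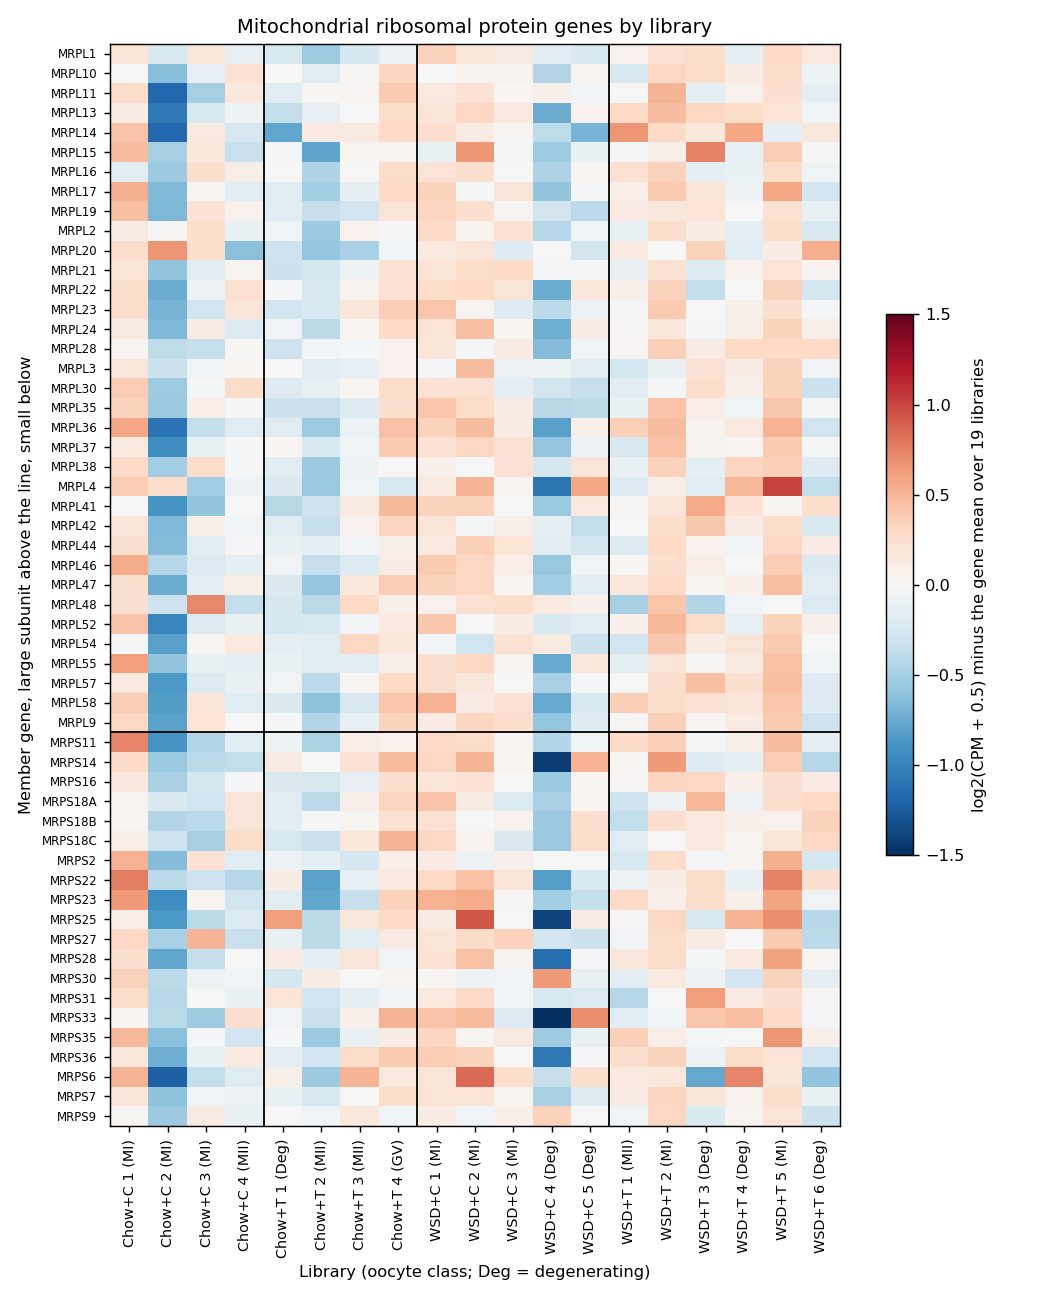
Each row is a member gene and each column a library, ordered by treatment group, with the oocyte class in brackets. Colour is log2(CPM + 0.5) minus the gene's mean over the 19 libraries, on a scale that ends at 1.5 in either direction. Blue columns mark Chow+C 2, lowest for 33 members, and WSD+C 4, lowest for 15, while MRPL20 is red in Chow+C 2 and MRPS30 in WSD+C 4.

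A few members did not follow the others. The median r of a member with the other members was -0.03 for MRPL20, 0.13 for MRPS30, 0.24 for MRPL48 and 0.31 for MRPS9, against 0.77 for MRPS7 and MRPL47. MRPL20, which has a bacterial counterpart that binds ribosomal RNA early in assembly, was highest (19.04 CPM) in Chow+C 2, the library where most members were lowest, and lowest (7.47 CPM) in Chow+C 4. MRPS30 was highest in WSD+C 4, at 27.3 CPM against 13.1 to 22.2 CPM in the other 18 libraries. Despite its name, MRPS30 is built into the large subunit, as is MRPS18A (18.6 to 37.0 CPM). MRPS36, which is now known as a subunit of the 2-oxoglutarate dehydrogenase complex of the citric acid cycle, was lowest in WSD+C 4 at 8.40 CPM and highest in Chow+T 4 at 24.1 CPM. Its median r with the ribosomal members, at 0.69, was above that of most of them. The neighbouring genes MRPL46 and MRPS11, singled out after their values were seen, had an r of 0.89 over the 19 libraries.

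Members also differed in how far they ranged. The widest spread over libraries was that of MRPS33, MRPS25, MRPS6 and MRPL14, with an SD of 0.54 to 0.57 on the log2 scale and 4.32 to 6.04 times between their lowest and highest library. For MRPS33 and MRPS25 the lowest library was WSD+C 4, at 15.4 and 7.24 CPM, and for MRPS6 and MRPL14 it was Chow+C 2, at 11.9 and 1.60 CPM. The narrowest spread was that of MRPL3, MRPS9, MRPL2 and MRPL21, with an SD of 0.20 to 0.25. MRPL3 and MRPL2 lie near the site where amino acids are joined. MRPL3 kept to 30.3 to 52.6 CPM.

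The 2 subunits, as set by symbol, kept nearly the same proportion. In all subunit sums, ratios, correlations and medians, the symbol set the subunit, so MRPS18A, MRPS30 and MRPS36 were counted as small. The reading by structure class further below is the exception. The summed CPM of the 35 large subunit members was 1.54 to 1.82 times that of the 20 small subunit members, with a mean of 1.67 ± 0.0793 (SD, n = 19). The mean log2 CPM of the subunits correlated over the 19 libraries with a Pearson r of 0.95 and a Spearman rho of 0.93, and without Chow+C 2 and WSD+C 4, the most distant libraries, with 0.92 and 0.90. In the Chow+C libraries the ratio was 1.63, 1.71, 1.82 and 1.76, and in the Chow+T libraries 1.54, 1.65, 1.61 and 1.67. The ranges of the groups overlapped, and WSD+C 4 had 1.82.

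The first set of comparisons asked what testosterone, the Western-style diet and their combination did to these genes. Summed over the large subunit, the Chow+C libraries had 1231, 699.6, 993.5 and 1020 CPM, and the Chow+T libraries 930.6, 817.7, 1013 and 1202 CPM. The WSD+C libraries had 1192, 1226, 1098, 747.7 and 1022 CPM, and WSD+T ranged from 962.0 over a median of 1119 to 1356 CPM. The group means were 986 ± 218, 991 ± 162, 1057 ± 191 and 1137 ± 150 CPM (SD, n = 4, 4, 5 and 6) in that order, and all 4 ranges overlapped. Small subunit means followed in the same order at 573 ± 142, 613 ± 91.8, 641 ± 140 and 674 ± 77.3 CPM.

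**Figure D2:**
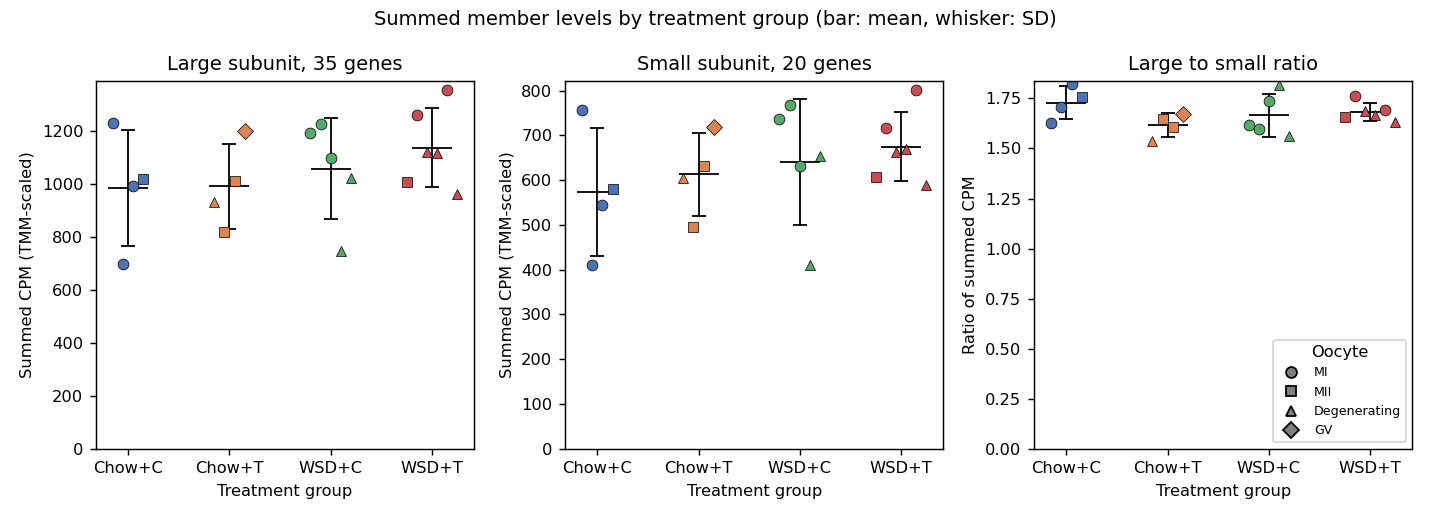
Points are libraries, coloured by treatment group with shapes for the oocyte class. The left and middle panels give the summed TMM-scaled CPM of the 35 large and 20 small subunit members and the right panel their ratio, with the mean and SD of each group. The group means of the large subunit lie between 986 and 1137 CPM and the ranges overlap.

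No member passed the test in any of the 8 treatment comparisons: edgeR's quasi-likelihood test with Benjamini-Hochberg adjustment called 0 of 55 members, against 0% of the 15019 genes tested, and DESeq2 and limma-voom called 0 members as well. At an unadjusted p under 0.05, edgeR put 1 member lower and none higher for testosterone on chow, beside 4.87% and 2.32% of all genes. For diet without testosterone it put none in either direction, beside 2.50% higher and 2.58% lower. WSD+T against Chow+C had 4 members higher and none lower, beside 3.06% and 3.69%.

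For testosterone on the Western-style diet no member reached that p, beside 0.699% higher and 3.16% lower. Diet under testosterone had 2 members higher and none lower, beside 2.20% and 2.77%. The testosterone main effect had none, beside 1.84% higher and 4.47% lower. The diet main effect and the interaction had 1 member higher each and none lower, beside 5.16% and 1.71% for the former and 2.62% and 1.90% for the latter. DESeq2 and limma-voom at the same p gave 0 to 4 members per direction in these comparisons. The shares of all genes are those of edgeR, and none are given for DESeq2 and limma-voom.

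The direction of the fitted differences was more even than their size. In the combined comparison, WSD+T minus Chow+C, 51 of 55 members had a positive log2 difference, beside 49.9% of all genes tested, with a median of 0.21 in the large and 0.24 in the small subunit. For the diet main effect 53 members were positive, beside 51.6% of genes, with medians of 0.16 and 0.12. For diet under testosterone 50 were positive, beside 55% of genes, and for testosterone on the Western-style diet 48, beside 50%. For diet without testosterone 49 were positive, beside 52.6%, and for testosterone on chow 31, beside 48.2%, with medians of 0.041 and 0.081. Comparisons that share a group are not independent, and members that vary together do not count as 55 separate observations.

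These directions depended on single libraries and on the scaling. Without Chow+C 2, 41 members remained positive in WSD+T minus Chow+C, with medians of 0.081 and 0.11, and 17 in testosterone on chow, 22 in diet without testosterone and 26 in the testosterone main effect. Without Chow+C 1 the medians in WSD+T minus Chow+C were 0.34 and 0.38. For the interaction 37 members were positive, beside 51% of genes, with medians of 0.12 and 0.038, and without Chow+C 1 there were 20, with medians of -0.022 and -0.13. Without WSD+C 4, 30 were positive in testosterone on the Western-style diet, with medians of 0.017 and -0.00042. With library totals in place of TMM factors, 45 members were positive in WSD+T minus Chow+C, 38 in testosterone on the Western-style diet, 41 in diet without testosterone, 23 in testosterone on chow and 25 in the testosterone main effect. The diet main effect stayed at 49 to 54 positive members over the fits that left out 1 library and at 53 with library totals, but without Chow+C 2 its medians were 0.065 and 0.076. Without WSD+C 4 and WSD+T 6, the libraries rich in leukocyte markers, 53 were positive, with medians of 0.22 and 0.23. In the 12 libraries with an MI or MII oocyte all 55 were positive, with medians of 0.32 and 0.31. There, 9 members were higher and none lower at an unadjusted p under 0.05, beside 3.14% and 5.59% of all genes. The smallest adjusted p was 0.544 (edgeR). Among these 12 libraries, Chow+C had 3 MI and 1 MII, Chow+T 2 MII, WSD+C 3 MI, and WSD+T 2 MI and 1 MII. The fit had no oocyte term, so diet and oocyte class cannot be fully told apart there.

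**Figure D3:**
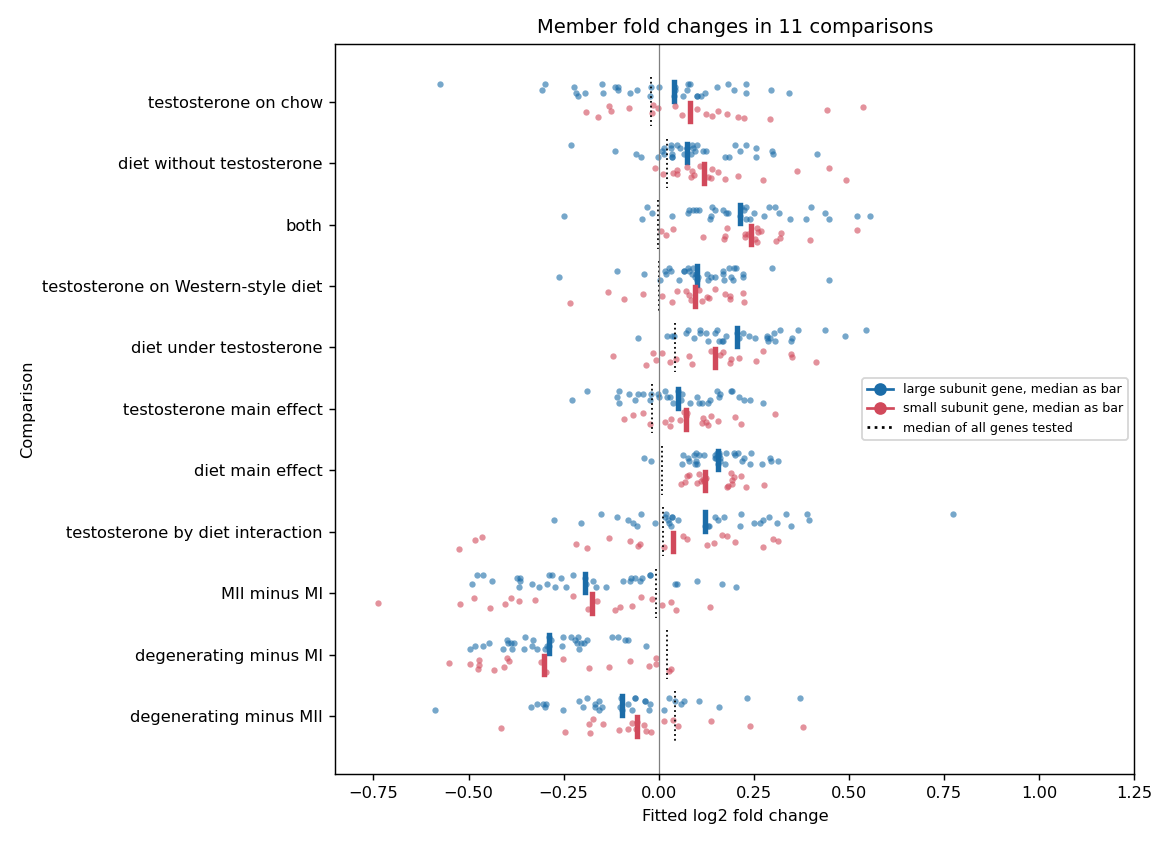
Each point is the fitted log2 difference of a member in 1 of 11 comparisons, large subunit above and small subunit below within each row, with the subunit's median as a bar and the median of all genes tested as a dotted line. Diet main effect points lie mostly right of 0 (53 of 55) and degenerating minus MI points mostly left of it (53 of 55), while no point passed the test.

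Of single members, MRPL28 had the smallest p in the combined comparison. It had 33.9, 25.2, 25.9 and 33.4 CPM in Chow+C and 34.0 to 42.4 CPM, with a median of 40.7, in WSD+T. The groups did not overlap, but the nearest libraries were 33.9 and 34.0 CPM. The log2 difference was 0.40 (SE 0.16, 95% interval 0.070 to 0.73) with an adjusted p of 0.717 (edgeR).

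MRPL41, a large subunit protein without bacterial counterpart, was the other member whose groups did not overlap in that comparison. Chow+C had 31.4, 16.8, 20.8 and 31.7 CPM, and WSD+T had 31.9 to 47.1 CPM with a median of 36.5. The log2 difference was 0.56 (SE 0.23, adjusted p = 0.717, edgeR). These 2 members are 3.64% of 55, beside 0.406% of all genes that lay higher without overlap (0.333% lay lower), and the gaps are smaller than the spread within either group. In the other 4 pairwise treatment comparisons no member was free of overlap. Of all genes, 1.33% lay higher and 1.33% lower without overlap for testosterone on chow, 0.286% and 0.260% for diet without testosterone, 0.020% and 0.053% for testosterone on the Western-style diet, and 0.593% and 0.586% for diet under testosterone. MRPL13 and MRPL57 had differences of 0.52 and 0.44 at the same adjusted p, with overlapping groups, and MRPL13 was at 0.32 without Chow+C 2.

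MRPL1 and MRPL20 were among the 3 members of smallest p in testosterone on chow, diet under testosterone and the interaction. MRPL1, part of a mobile stalk beside the site where spent tRNA leaves, had 12.04, 9.71, 11.9 and 13.4 CPM in Chow+T and 13.0 to 17.5 CPM, with a median of 16.3, in WSD+T. The ranges touched, since the highest Chow+T library lay above the lowest WSD+T library. The log2 difference was 0.44 (SE 0.16, adjusted p = 0.862, edgeR).

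MRPL20 had 14.2, 19.04, 14.2 and 7.47 CPM in Chow+C, 9.39, 7.71, 8.29 and 11.5 CPM in Chow+T, 13.1, 13.6, 10.3, 11.9 and 9.70 CPM in WSD+C, and 10.5 to 17.5 CPM in WSD+T. The 4 lowest of the 19 libraries were Chow+C 4 and 3 Chow+T libraries, while Chow+T 4 lay within the range of every other group. Its log2 difference was -0.58 (SE 0.24, adjusted p = 0.659, edgeR) for testosterone on chow. The interaction, the test of whether testosterone acted differently on the 2 diets, gave 0.77 (SE 0.32, adjusted p = 0.933). Without Chow+C 2 the first of these was -0.38 and the second 0.58. MRPL20 is also the member that followed the others least.

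Among the remaining members of smallest p, the log2 differences were 0.54 for MRPS25 in testosterone on chow, 0.49 for MRPS6 and 0.26 for MRPL21 in diet without testosterone, and 0.45 for MRPL14 and -0.26 for MRPL48 in testosterone on the Western-style diet. The interaction for MRPS14 was -0.48. None passed the test, with adjusted p-values of 0.757 to 0.999 (edgeR). In diet without testosterone, MRPS6 was at 0.26 without Chow+C 2 and 0.84 without Chow+C 1, and MRPL21 at 0.11 and 0.38.

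Leukocyte markers also had higher fitted values on the Western-style diet. All 11 tested leukocyte markers had a positive diet main effect with a median log2 difference of 3.16, none called, and their summed level was 10.4 to 141 CPM on chow, 6.39 to 2328 CPM in WSD+C and 30.3 to 2195 CPM in WSD+T. With a leukocyte score in the fit, 54 members had a positive diet main effect, with medians of 0.20 and 0.19, and 2 were higher at an unadjusted p under 0.05 (edgeR), beside 1.40% of all genes. What part leukocytes had in the diet difference was not tested beyond these values.

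**Figure D4:**
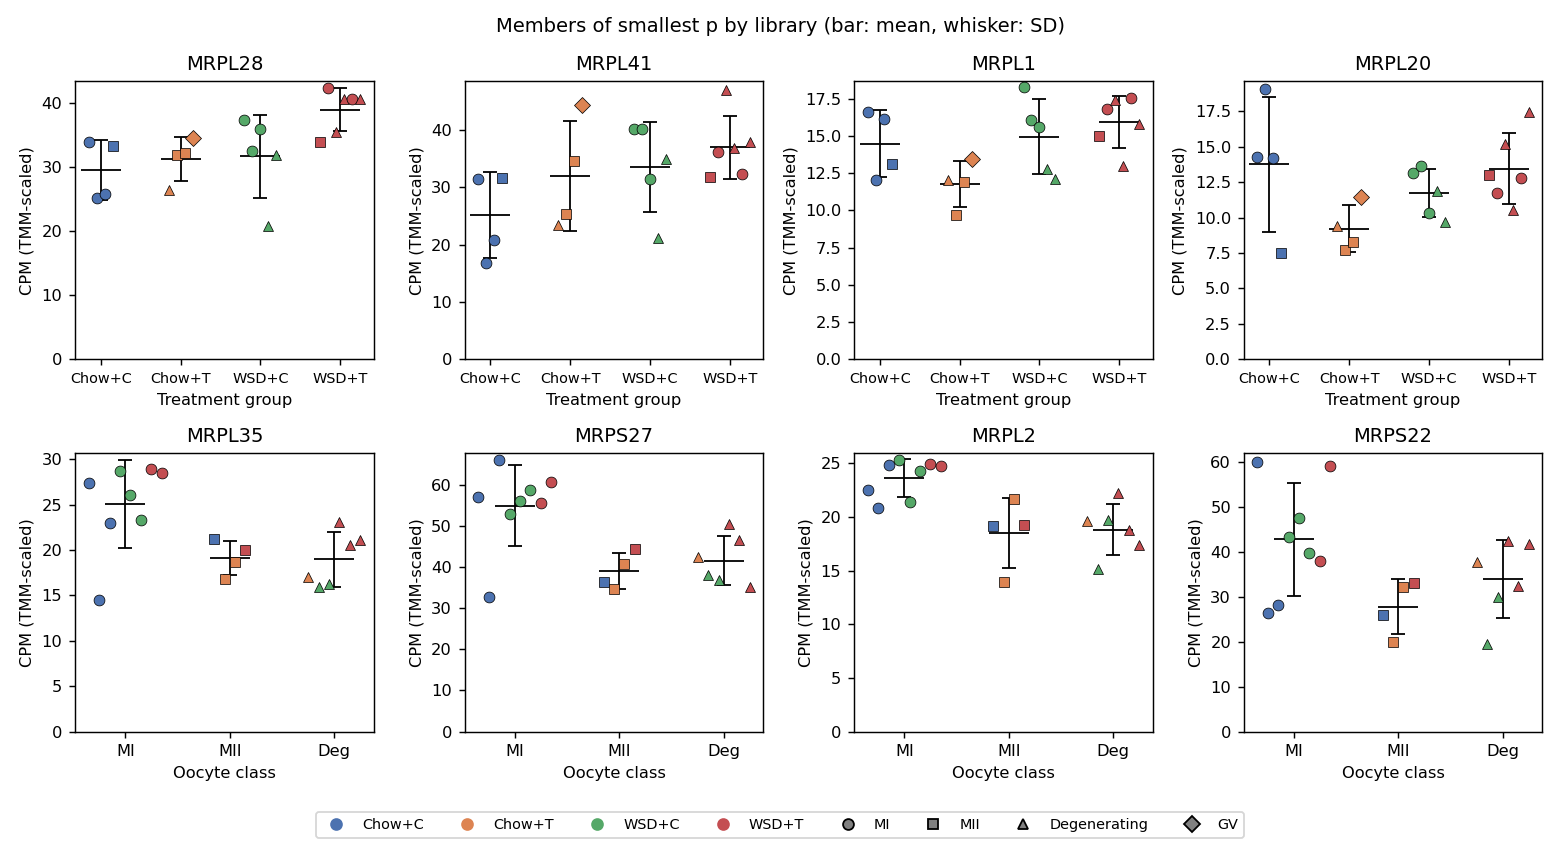
Points are libraries in TMM-scaled CPM, coloured by treatment group with shapes for the oocyte class, and bars and whiskers give group means and SDs. The upper row shows MRPL28, MRPL41, MRPL1 and MRPL20 by treatment group, where 3 Chow+T libraries and Chow+C 4 are lowest in MRPL20, and the lower row MRPL35, MRPS27, MRPL2 and MRPS22 by oocyte class, where the MI libraries other than Chow+C 2 lie above all others in MRPS27.

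The second set of comparisons asked whether the members differ with the state of the oocyte from the same follicle. Treatment group was a term in this fit, and the single GV library was left out. Summed over the large subunit, the 8 MI libraries ranged from 699.6 over a median of 1209 to 1356 CPM. The MII libraries had 1020, 817.7, 1013 and 1006 CPM. The 6 degenerating libraries ranged from 747.7 over a median of 991.8 to 1120 CPM. Chow+C 2 was the low end of MI. Without it the other 7 MI libraries lay between 993.5 and 1356 CPM, with a mean of 1194 ± 117 (SD), against 983 ± 139 in the degenerating class (SD, n = 6). With all 8 MI libraries the mean was 1132 ± 206 CPM (SD). The degenerating mean kept its own low library, WSD+C 4 at 747.7 CPM. The other degenerating libraries lay between 930.6 and 1120 CPM. The small subunit followed with means of 671 ± 134 CPM in MI, 578 ± 58.8 in MII and 599 ± 97.8 in degenerating. The GV library, with no replicate, had 1202 and 719 CPM for the subunits.

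Between degenerating and MI oocytes, 53 of 55 members had a negative log2 difference, all 35 of the large and 18 of the 20 of the small subunit, where 52.0% of the 14976 genes tested were positive. The medians were -0.29 and -0.30, beside 0.021 over all genes. edgeR called 0 of 55 members, against 0% of genes. At an unadjusted p under 0.05, 6 members were lower (10.9%, beside 4.45% of all genes) and none was higher, beside 9.82% of all genes. limma-voom called 0 members with 6 lower at that p, and DESeq2 called 1, MRPL35, with 10 lower at that p. DESeq2 called 801 of all genes in the same comparison. Shares of all genes at an unadjusted p are those of edgeR, here and in the other oocyte comparisons. Leaving out 1 library at a time, the number of members lower at that p ranged from 2 without WSD+C 4, beside 2.37% of all genes, to 22 without Chow+C 2, beside 7.14%, with none called by edgeR. No member was free of overlap in either direction over all MI and degenerating libraries, beside 0.067% of genes higher and 0.027% lower.

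MRPL35, a large subunit protein with a bacterial counterpart, had 14.5 CPM in Chow+C 2 and up to 28.9 CPM in the MI libraries, with a median of 26.7. The degenerating libraries ranged from 15.9 over 18.8 to 23.1 CPM, and the MII libraries had 21.2, 16.8, 18.6 and 20.02 CPM. Chow+C 2 and Chow+C 3 were the only MI libraries within the degenerating range or below it. The log2 difference of degenerating minus MI was -0.48 (SE 0.16, 95% interval -0.82 to -0.15) with an adjusted p of 0.186 in edgeR and 0.0418 in DESeq2.

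MRPS27, which carries RNA-binding repeats of the pentatricopeptide kind and has no bacterial counterpart, had 32.8 CPM in Chow+C 2 and up to 66.1 CPM in MI, with a median of 56.6. The degenerating libraries ranged from 35.1 over 40.3 to 50.4 CPM and the MII libraries had 36.5, 34.7, 40.7 and 44.4 CPM. Every MI library other than Chow+C 2 lay above every MII and degenerating library. The log2 difference was -0.47 (SE 0.16, adjusted p = 0.212, edgeR) for degenerating and -0.52 (SE 0.20, adjusted p = 0.9995) for MII, each against MI.

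MRPL2, a core protein of the large subunit, showed the same order with a narrower spread. It had 20.9 to 25.3 CPM in MI, 19.2, 13.9, 21.6 and 19.2 CPM in MII, and 15.2 to 22.2 CPM in the degenerating class. The log2 difference was -0.36 (SE 0.14, adjusted p = 0.267, edgeR) for degenerating against MI. MRPS22, a small subunit protein without bacterial counterpart, ranged from 26.4 to 60.1 CPM in MI and had 26.1, 19.97, 32.2 and 33.0 CPM in MII, with a log2 difference of -0.74 (SE 0.29, adjusted p = 0.9995, edgeR), the largest in size of any member in that comparison.

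Between MII and MI oocytes 46 of 55 members were negative, 30 large and 16 small, where 49% of genes were positive, with medians of -0.19 and -0.17. These medians rested on single libraries: that of the large subunit ranged from -0.36 without Chow+C 4 to -0.092 without WSD+T 1, and that of the small subunit from -0.33 without Chow+C 4 to -0.065 without Chow+C 1. edgeR called 0 of 55, against 0% of genes, and 3 members were lower at an unadjusted p under 0.05, beside 1.70% of genes, with none higher, beside 2.21%. DESeq2 and limma-voom called 0 with 3 lower each. Leaving out 1 library at a time, the number lower at that p (edgeR) ranged from 1, without Chow+T 1 or WSD+T 5, beside 0.643% and 1.20% of genes, to 13 without Chow+C 2, beside 3.30%. No member was free of overlap, beside 0.227% of genes higher and 0.634% lower. Between degenerating and MII oocytes 40 members were negative and 15 positive, with medians of -0.096 and -0.058, no call against 0% of genes, and no member at an unadjusted p under 0.05, beside 1.54% of genes higher and 1.84% lower. DESeq2 and limma-voom gave none there either. No member was free of overlap, beside 0.407% of genes higher and 0.254% lower. Without the treatment term 33 members were positive, and without Chow+C 4 the medians were 0.018 and 0.025. The smallest p there were those of MRPS31 (log2 difference 0.38), MRPL20 (0.37) and MRPS36 (-0.41). Without Chow+C 4 these were 0.54, 0.14 and -0.26, and without WSD+T 1 the first 2 were 0.22 and 0.62.

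**Figure D5:**
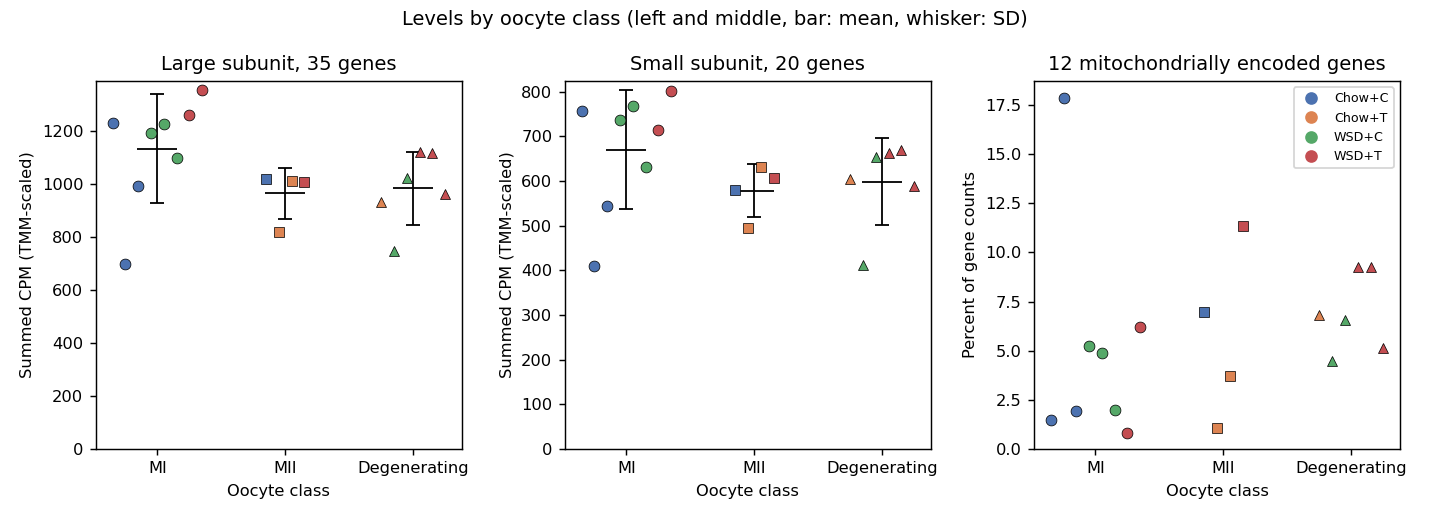
Points are libraries by oocyte class, coloured by treatment group. The left and middle panels give the summed TMM-scaled CPM of the large and small subunit members with mean and SD, and the right panel the percent of gene counts from 12 mitochondrially encoded genes. The MI mean of the large subunit is 1132 CPM with Chow+C 2 at 699.6, and the same library is the highest in the right panel at 17.9%.

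The MI and degenerating classes could be compared within the Western-style diet, where 5 libraries fell in each. This comparison was chosen after the data were seen. The large subunit had 1192, 1226, 1098, 1262 and 1356 CPM in the MI libraries and 747.7, 1022, 1120, 1118 and 962.0 CPM in the degenerating libraries, with means of 1227 ± 94.4 and 994 ± 153 (SD). The small subunit means were 731 ± 63.9 and 598 ± 109 CPM. In each subunit the ranges overlapped through the lowest MI library, WSD+C 3.

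In that fit 54 of 55 members were negative, with medians of -0.31 and -0.33, and edgeR called 0 against 0% of genes. At an unadjusted p under 0.05, 21 members (38.2%) were lower, beside 6.70% of the 13929 genes tested, and none was higher, beside 13.0% of genes. The smallest adjusted p among members was 0.148. MRPL35 averaged 19.4 ± 3.17 CPM in the degenerating and 27.1 ± 2.41 CPM in the MI libraries (SD, n = 5 each), with a log2 difference of -0.53 (SE 0.12, adjusted p = 0.148, edgeR). MRPL37 averaged 86.2 ± 14.1 and 116 ± 7.90 CPM, and MRPL9 46.7 ± 8.93 and 64.2 ± 4.49 CPM.

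For 7 members every degenerating library lay below every MI library: MRPL9, MRPL21, MRPL22, MRPL35, MRPL37, MRPL44 and MRPS27. They were singled out after their values were seen. They are 12.7% of members, beside 1.90% of genes, and no member lay higher without overlap, beside 2.47%. Leaving out degenerating libraries can only keep or add members that lie lower without overlap, so such counts could not fall. Without WSD+C 4 these members numbered 8 (beside 2.65% of genes), and without WSD+C 4 and WSD+T 6 they numbered 9 (beside 3.48%). None lay higher without overlap in these, beside 3.10% and 3.96% of genes. In these smaller fits 49 members were negative each time, with 17 and 11 lower at an unadjusted p under 0.05, beside 5.66% and 4.49% of genes, and 0 called.

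Markers of other cells stood higher in most libraries of the degenerating class. The exception is Chow+T 1, the degenerating library on chow, with leukocyte markers at 10.4 CPM and erythroid markers at 47.5 CPM, beside MI medians of 18.6 and 130 CPM. Its large subunit sum was 930.6 CPM. Within the Western-style diet the summed leukocyte markers were 6.39 to 32.1 CPM in the MI and 39.6 to 2328 CPM in the degenerating libraries, with no overlap, and erythroid markers were 13.1 to 1879 and 760 to 147026 CPM. Granulosa markers were 13513 to 15976 CPM in the MI and 2253 to 13857 CPM in the degenerating libraries. Over all 18 libraries all 11 tested leukocyte markers had a positive difference with a median of 5.46, none called. When a leukocyte score entered the fit, 47 members were negative for degenerating minus MI, with medians of -0.20 and -0.19 and 2 lower at an unadjusted p under 0.05 (edgeR). Without WSD+C 4 and WSD+T 6, 48 were negative, with medians of -0.21 and -0.19 and 1 lower at that p. No share of all genes is set beside these counts at that p, so they are not read as an excess among members. What part the other cells had in the difference was not tested beyond these values.

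The members were also read by structure class, from a list that marks members as bacterial homologue or mitochondria specific. The class was taken as listed, and descent of single proteins was not examined. For degenerating minus MI, the 23 large subunit members listed as bacterial homologue had a median of -0.29. The 14 listed as mitochondria specific in the large subunit, MRPS18A and MRPS30 among them, had -0.25. For the small subunit these were -0.30 for 9 members and -0.43 for 8. No difference between these groups was tested.

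Other genes of mitochondrial protein synthesis were read from lists. For degenerating minus MI, edgeR called none of them. Of all genes tested, 52.0% were positive, and 4.45% were lower and 9.82% higher at an unadjusted p under 0.05. Of 20 enzymes that charge mitochondrial tRNAs, 18 were negative with a median of -0.31, and 7 were lower at an unadjusted p under 0.05. Of 14 translation factors 12 were negative (median -0.22, 2 lower at that p), of 23 assembly factors 20 (median -0.16, 3 lower), and of 11 genes of mitochondrial DNA copying and transcription 9 (median -0.21, 2 lower and 1 higher). The genes of smallest p, named after their values were seen, were LARS2, the leucyl-tRNA synthetase, at -0.66 (adjusted p = 0.170, edgeR), TSFM, an elongation factor, at -0.80 (adjusted p = 0.245), and PNPT1, an RNA-degrading enzyme, at -0.64 (adjusted p = 0.164). DAP3, a small subunit protein outside the naming rule, stood at -0.78 (adjusted p = 0.260).

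Genes read by this ribosome and genes of the cytosolic ribosome did not follow. All 12 mitochondrially encoded genes were positive for degenerating minus MI, with a median of 0.89, and none was called or reached an unadjusted p under 0.05. Their share of gene counts was 0.795% to 17.9% in MI and 4.48% to 9.28% in the degenerating libraries. Of 62 cytosolic ribosomal protein genes tested 49 were positive, with a median of 0.084, and none was called or reached that p in either direction.

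The same lists were read in the diet main effect, where 53 of 55 members were positive. The median log2 difference was 0.040 for the tRNA synthetases (13 of 20 positive), 0.0059 for translation factors (8 of 14), 0.036 for assembly factors (14 of 23), 0.15 for cytosolic ribosomal proteins (58 of 62) and 0.19 for mitochondrially encoded genes (11 of 12), with none called. The genes of smallest p were QRSL1 (0.28), MTRF1L (0.16), RPUSD3 (0.23), RPL14 (0.29) and ND2 (1.11).

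In testosterone on chow the lists parted. All 12 mitochondrially encoded genes were negative (median -0.96) and 61 of 62 cytosolic ribosomal proteins positive (median 0.30), beside 31 of 55 members, with none called. Chow+C 2 stood apart in both lists. Its mitochondrially encoded share of gene counts was 17.9%, against 1.45%, 1.95% and 6.99% in the other Chow+C libraries and 1.05% to 6.81% in Chow+T. Its mean log2 CPM of the cytosolic list was 4.11, against 4.78 to 5.38 in the other Chow+C libraries and 4.90 to 5.42 in Chow+T. What part Chow+C 2 had in these differences was not tested. Of the assembly factors 6 of 23 were positive (median -0.13), and MTERF4, which helps to join the subunits, had the smallest p among them, with a log2 difference of -0.55. TOP1MT, a topoisomerase of mitochondrial DNA, stood at -1.27 and PPARGC1A, a coactivator of mitochondrial genes, at -1.63, each with an adjusted p of 0.658 (edgeR). Each was named for its p-value within its list and does not stand for the other genes of that list.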

How the data were processed

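Poly(A)-selected, non-directional RNA libraries were made from luteinized granulosa cells, per the labels' protocols. Trimmomatic and STAR are named in the submitters' processing notes; versions, build and annotation were not given in the sources used here. A table deposited by the authors holds unnormalized counts, with a column per library. The 4 rows that name no gene were left out, with 30.9% to 50.9% of reads. Reads of overlapping or antisense genes cannot be told apart without strand. Symbols come from the counts. The RefSeq gene table, used for names and neighbours only, calls the MRPS28 row TPD52, the MRPS36 row KGD4 and a row named STX3 MRPL16.

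Members and lists were chosen with earlier results of these data known. Counts were fitted in edgeR 4.0.16 (R 4.3.3): TMM factors, filterByExpr (minimum count 10, total 15), robust quasi-likelihood F tests, two-sided, Benjamini-Hochberg adjustment over all genes tested, threshold 0.05. One fit of 19 libraries gave 8 treatment comparisons; a fit of 18 libraries (the GV library left out) with treatment as a term gave 3 oocyte comparisons. Alternatives were DESeq2 1.42.0, limma-voom (limma 3.58.1), other scaling, no filter, other member rules and fewer libraries. Log2 CPM used a prior count of 1. Only the treatment fit was tested on simulated data, with planted changes larger than most member differences here, and the oocyte fits were not. Named members are, per comparison, those past the threshold or the 3 of smallest p; the highest and lowest CPM; the largest and smallest SD; those nearest 1 CPM; and MRPS18A, MRPS18B, MRPS18C, MRPS30 and MRPS36. Other members named for their outlying values were chosen after those were seen. P-values measure the spread between these libraries; the smallest median count of a member over libraries was 185 (MRPL14), so counting error was small beside that spread.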

Additional observations from a re-analysis of the deposited data

Results flagged for a closer look

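In groups of 4 to 10 libraries, the highest or lowest library was set apart by a gap larger than Dixon's 95% critical value in 13 of 141 groups tested; chance flags about 1 in 20. These groups share libraries and members that vary together, so they are not 141 separate tests and the rates are not compared. The mean log2 CPM of the large subunit was 3.98 in Chow+C 2, below 4.58 to 4.94 in the other MI libraries, and 4.27 in Chow+T 2, below 4.56 to 4.62 in the other MII libraries. The mean log2 CPM of the small subunit was 4.25 in WSD+C 4, below 4.76 to 4.95 in the other degenerating libraries.

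WSD+C 4 also stood apart from the other WSD+C libraries in 6 members on the log2 CPM scale. It was low in MRPL28 (4.38), MRPL13 (4.35), MRPS14 (4.03), MRPS36 (3.07) and MRPL10 (5.39), and high in MRPS30 (4.77). Elsewhere, MRPS22 was high in Chow+C 1 (5.91), MRPS9 in Chow+T 3 (4.98) and MRPL3 in WSD+C 2 (5.72), and MRPL14 was low in Chow+T 1 (1.19), each against its treatment group.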

How the results depend on the processing

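No paired analysis was possible because the labels carry no replicate numbers shared between groups. Under the alternatives tried, 296 of 297 counts of called members were unchanged at 0. The exception is degenerating minus MI, where DESeq2 called 1 member, MRPL35 (log2 difference -0.47, adjusted p = 0.0418); the cause was not tested. Over all genes, where edgeR called 0, that comparison gave 801 calls with DESeq2, 574 without the treatment term and 226 without Chow+T 1, and every other comparison and setting gave 0 to 8. Of 891 values of single members under alternatives, 890 kept their direction and their side of the threshold. All 682 subunit medians under alternatives moved by less than the SD between libraries within groups (0.26 for the large and 0.29 for the small subunit), but medians near 0 changed sign in testosterone on chow and on the Western-style diet, the interaction and degenerating minus MII, and, without Chow+C 2, in the large subunit for diet without testosterone (-0.046) and the testosterone main effect (-0.039). Leaving out each library in turn, the large and small subunit medians ranged over -0.14 to 0.16 and -0.022 to 0.21 for testosterone on chow, and 0.081 to 0.34 and 0.11 to 0.38 for WSD+T minus Chow+C.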
